A study of Mus musculus with 2 samples.

Results

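The genes described here are 10 adhesion molecules and ligands through which white blood cells roll on, hold to and pass the wall of a vessel: Vcam1, Icam1, Icam2, Sele, Selp, Pecam1, Selplg, Itga4, Itgb2 and Itgal. They were taken as a list by name, with no threshold on a measured value, and all 10 are among the 19059 genes of the single-cell matrices. Gene expression was measured in mouse liver in 2 libraries, 1 for each genotype label. One carries the label AEG-1DMAC, in which the gene for AEG-1 is deleted in myeloid cells by a Cre recombinase under the Lyz2 promoter. The other carries the label AEG-1fl/fl, floxed littermates without the Cre. Mice of both labels were 27 weeks old and had eaten a high-fat and high-sugar diet (HF/HSD) for 20 weeks from the age of 7 weeks. The study used mice of both sexes; whether 1 liver or several went into a library is not given in the sources used here.

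Rolling is begun by the selectins. P-selectin (Selp) and E-selectin (Sele) stand on activated endothelium and bind sugars on PSGL-1 (Selplg) of leukocytes. Firm hold comes from integrins: LFA-1, a pair of Itgal and Itgb2, binds ICAM-1 and ICAM-2, while VLA-4, a pair of Itga4 and Itgb1, binds VCAM-1. PECAM-1 lies at endothelial junctions and serves the passage between cells. In liver, most leukocytes arrest in the sinusoids, where selectins are known to matter less than in other vessels, and resident macrophages called Kupffer cells sit in the same channels.

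The deposited matrices held 2581 cells and 79589511 counts in the library labelled AEG-1DMAC, and 3535 cells and 90440089 counts in the library labelled AEG-1fl/fl. After cells of low quality were left out, 2571 and 3508 remained, and the median cell held 12746 and 7682 counts. The libraries shared 10 cell barcodes. With 1 library per label there is no replicate and no test: intervals below are 95% intervals for counting error only, exact Poisson for levels and exact binomial (Clopper-Pearson) for shares and for ratios of counts. Levels are CPM, the counts of a gene per 1000000 counts of a cell class. The assay counts probes, so a level of 1 gene was not set against that of another.

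The label check went against the labels. Mtdh, the gene that encodes AEG-1, stood at 115 CPM (101 to 130) in macrophages of the library labelled AEG-1DMAC and at 23.7 CPM (19.7 to 28.3) in those of the library labelled AEG-1fl/fl. The lower value lay in the library that should carry an intact gene. In endothelial cells Mtdh stood at 85.2 and 92.5 CPM, and in hepatocytes at 61.8 and 57.6 CPM. Where the probes lie in the gene is not given in the sources used here. Libraries are therefore named by their labels throughout, and each direction below is that of the label, not of a checked genotype. Y-linked genes were counted in both libraries, with Ddx3y at 4821 and 5218 counts.

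Cells were put into classes by lists of marker genes that hold none of the 10 genes. The endothelial class held 304 and 390 cells in the libraries labelled AEG-1DMAC and AEG-1fl/fl, the stellate class 208 and 297, the macrophage class 249 and 615, and the T and NK cell class 60 and 113. B cells numbered 52 and 82, neutrophils 14 and 59, dendritic cells 18 and 35, cholangiocytes 32 and 103, and hepatocytes 1142 and 1185. All names stand for cells that are like the type by its markers. A further 52 and 93 cells bore markers of more than 1 class and were set aside as possible doublets, and 440 and 536 stayed ungated. The markers fitted the names: the median macrophage-class cell held 19916 and 21781 CPM of macrophage markers against 419 and 221 CPM of endothelial ones, and the median endothelial-class cell 9194 and 13502 CPM of endothelial markers against 813 and 686 CPM of macrophage ones. A class cut from a score is a range. In the macrophage class 102 and 219 cells lay within 2-fold above the bar, and 137 and 246 cells lay within 2-fold below it.

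Hepatocyte RNA was present in every class, with a higher share in the library labelled AEG-1DMAC in each of the 9 classes but dendritic cells (7.94% and 10.0%). Counts of 24 hepatocyte genes made up 12.1% and 8.83% of endothelial-class counts in the libraries labelled AEG-1DMAC and AEG-1fl/fl, 13.5% and 9.72% in stellate cells, and 9.55% and 5.89% in macrophages, against 19.8% and 19.2% in hepatocytes. A class's own marker list was lower in that library in 4 of the 5 classes compared, with a log2 ratio of CPM (AEG-1DMAC label over AEG-1fl/fl label, here and below) of -0.49 in endothelial cells, -0.54 in stellate cells and -0.19 in macrophages. In the T and NK cell class it was -0.90, and in B cells it was 0.05 (-0.02 to 0.13). For this reason the main ratios are also given for cells with under 10% hepatocyte-gene counts, a choice made after these shares were seen. Of the cells of a class, 180 and 307 endothelial, 95 and 194 stellate, and 152 and 506 macrophage-class cells met it.

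Vcam1 (chr3:116109949-116129688, minus strand, GRCm38) encodes the ligand that VLA-4 holds, and its level was highest in macrophages, not in endothelium. In the macrophage class it stood at 489 CPM (461 to 519) in the library labelled AEG-1DMAC and at 993 CPM (966 to 1021) in the library labelled AEG-1fl/fl. Stellate cells held 154 CPM (138 to 172) and 365 CPM (343 to 387). Endothelial cells held 159 CPM (144 to 175) and 217 CPM (199 to 236). The macrophage level stood apart from the next class in each library, whereas the endothelial and stellate levels overlapped in the library labelled AEG-1DMAC. Hepatocytes held 15.9 and 24.4 CPM.

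Macrophages also supplied the most Vcam1 counts of any marker-gated class. They held 30.0% of all Vcam1 counts in the library labelled AEG-1DMAC and 46.1% in the library labelled AEG-1fl/fl, against 11.1% and 4.74% in endothelial cells and 8.76% and 9.48% in stellate cells. These shares move with the number of cells of a class, and the macrophage class made up 9.68% (8.57 to 10.9) and 17.5% (16.3 to 18.8) of the cells. Macrophage markers were also counted in other classes, which gives a measure of macrophage RNA there. The macrophage marker list reached 8.90% and 8.92% of its macrophage level in endothelial cells, and Vcam1 32.5% and 21.8%. In stellate cells the list reached 12.4% and 8.97%, and Vcam1 31.5% and 36.7%. In hepatocytes both were close, at 3.15% and 2.05% for the list and 3.26% and 2.45% for Vcam1.

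**Figure D1:**
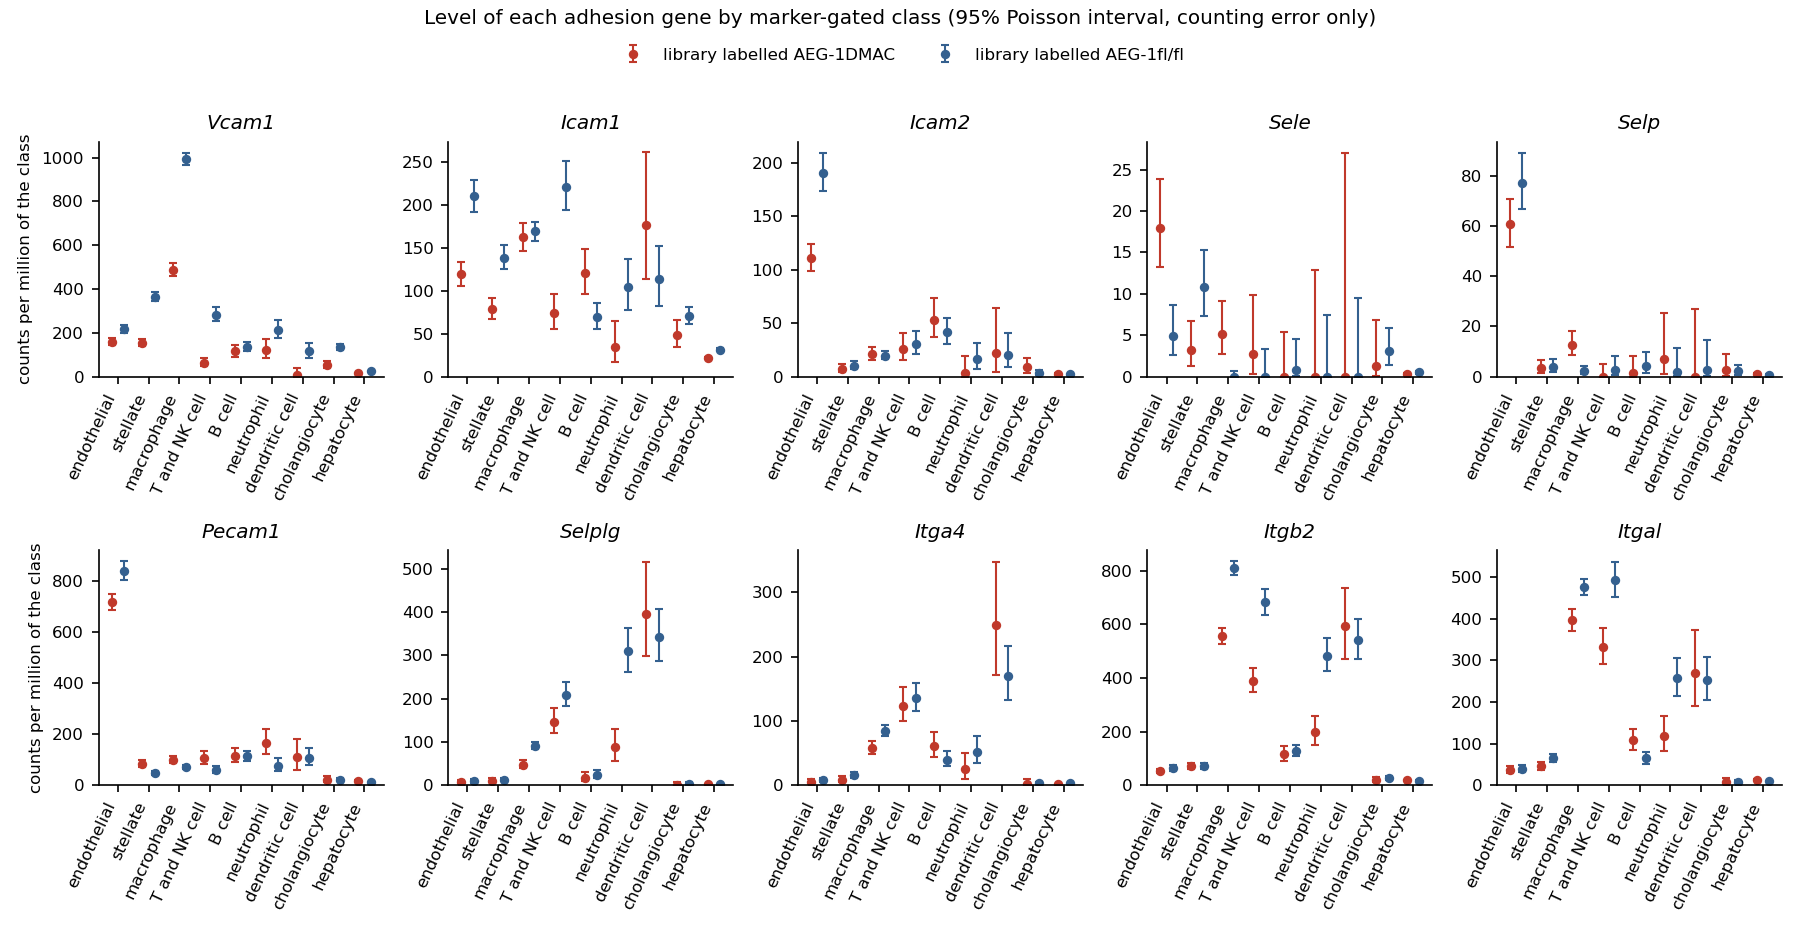
Level of each of the 10 genes (y axis, CPM of the class, a scale per gene) in 9 marker-gated classes (x axis) of the library labelled AEG-1DMAC (red) and the library labelled AEG-1fl/fl (blue); points are levels and bars 95% Poisson intervals. Vcam1 peaked in macrophages at 489 and 993 CPM, Icam2, Selp and Pecam1 in endothelial cells, and Selplg in dendritic cells at 395 and 343 CPM.

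**Figure D2:**
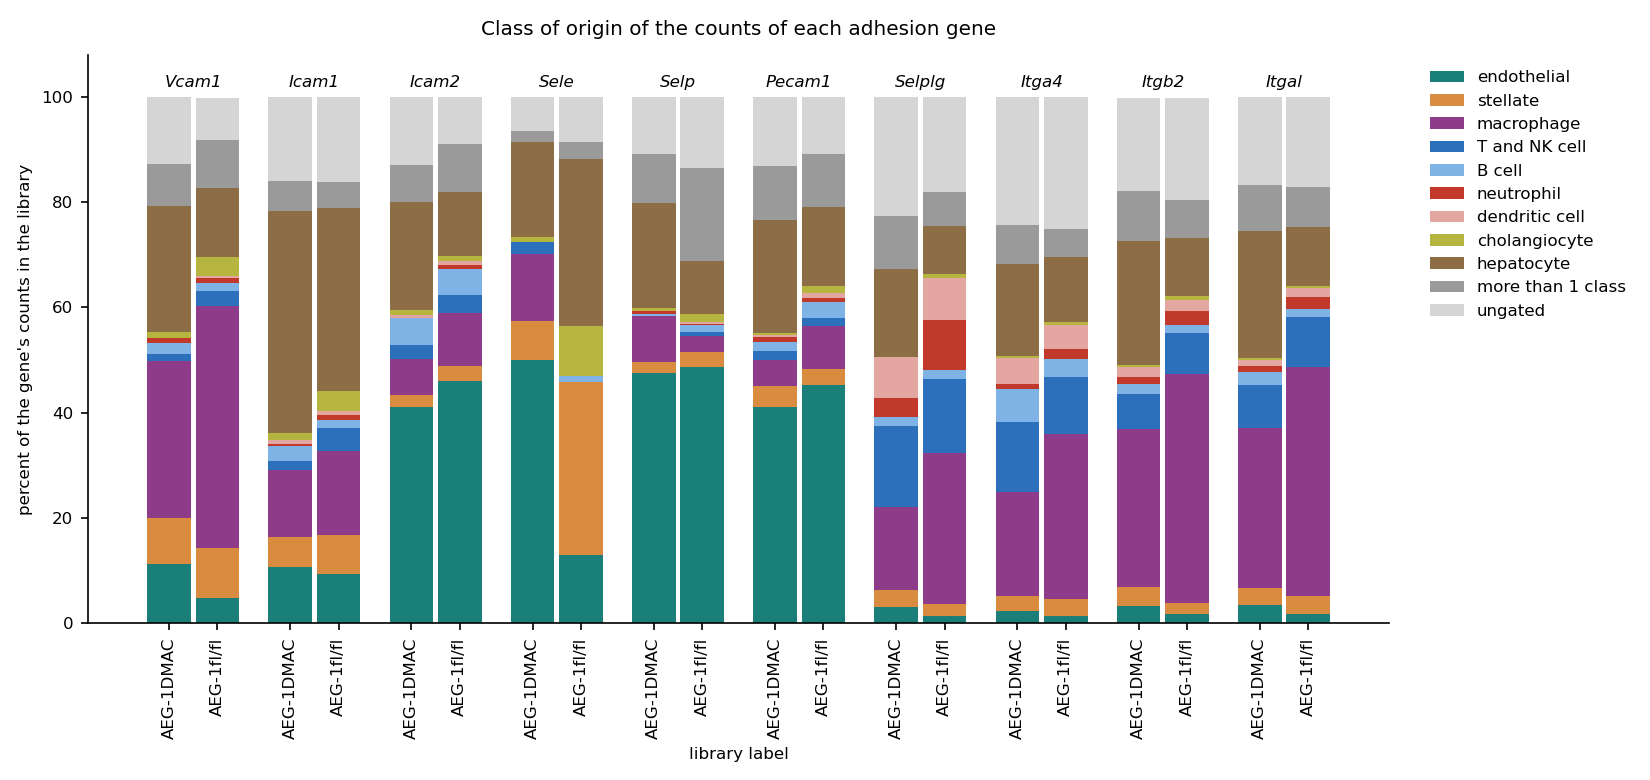
Percent of the counts of each gene (y axis) that lay in each class (colours), a bar per library label. Macrophages (purple) held 30.0% and 46.1% of Vcam1 counts, and endothelial cells (green) 41.1% and 45.2% of Pecam1 counts.

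In macrophages, stellate cells, endothelial cells and hepatocytes the share of cells with a Vcam1 count was lower under the AEG-1DMAC label, as the level was. In T and NK cells, given below, it was not. After each cell was thinned to 1500 counts, 37.0% of 211 macrophage-class cells (30.4 to 43.9) had a Vcam1 count in the library labelled AEG-1DMAC and 56.6% of 539 (52.3 to 60.8) in the library labelled AEG-1fl/fl, with 38 and 76 shallower cells left out (28 and 39 in stellate cells, 29 and 30 in endothelial cells, 59 and 65 in hepatocytes). Unthinned the shares were 59.8% and 77.7%, at a median depth of 5399 and 5570 counts. Stellate cells gave 23.3% of 180 and 37.2% of 258 thinned, and endothelial cells 17.1% of 275 and 25.8% of 360. The hepatocyte share, which free RNA can set, was 2.59% of 1083 and 4.46% of 1120 thinned, and 31.7% and 41.7% unthinned at a median depth of 25662 and 22312 counts. Thinned shares in macrophage, stellate and endothelial cells lay above the hepatocyte share, which is a low measure of free RNA for the stellate and endothelial classes, since macrophage markers were counted there at higher levels than in hepatocytes.

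Between the libraries, Vcam1 was lower under the AEG-1DMAC label in macrophages and in stellate cells by more than counting error. So it was in hepatocytes (-0.61, -0.73 to -0.49) and in cholangiocytes (-1.33, -1.81 to -0.88, from 44 and 397 counts). The hepatocyte level was close to that of macrophage RNA there, as given above. In neutrophils (35 and 107 counts) 28 of the 35 lay in 1 cell, and in dendritic cells (1 and 45 counts) 26 of the 45. No direction is given for these 2 classes. The log2 ratio of Vcam1 was -1.02 (-1.12 to -0.93) in macrophages and -1.24 (-1.42 to -1.06) in stellate cells. Among cells under 10% hepatocyte-gene counts it was -0.64 (-0.75 to -0.54) and -0.99 (-1.26 to -0.72), from 712 and 1113 CPM in macrophages and 256 and 506 CPM in stellate cells. In endothelial cells it was -0.45 (-0.63 to -0.26), close to the -0.49 of the endothelial marker list, and -0.15 (-0.40 to 0.10) among cells low in hepatocyte genes, where the list had -0.12. With classes taken from unsupervised clusters in place of the gate, the endothelial ratio was -1.77, and that of the endothelial marker list -1.07. The median macrophage-class cell held 2.09 Vcam1 counts per 10000 in the library labelled AEG-1DMAC and 6.90 in the other, and the upper quartile was 7.45 and 15.8. The highest macrophage-class cell held 5.58% and 3.07% of the Vcam1 counts of its class, so the difference was seen in the median cell and not in a few cells alone.

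In T and NK cells the Vcam1 ratio of -2.14 (-2.61 to -1.69) was set in size largely by 1 cell. Of 309 counts in the T and NK cell class of the library labelled AEG-1fl/fl, 195 lay in a single cell, and thinned shares were 10.3% of 58 cells and 7.48% of 107. With unsupervised clusters the ratio was -0.22, and among cells low in hepatocyte genes -3.98, from 5 and 284 counts. B cells held 115 and 137 CPM of Vcam1, within counting error of level at -0.26 (-0.67 to 0.14). Of their 78 counts under the AEG-1DMAC label, 46 lay in 1 cell.

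Within macrophages Vcam1 was lower under the AEG-1DMAC label in each sub-gate. Cells leaning to Kupffer markers (Clec4f, Marco, Cd5l, Vsig4, Timd4 and Folr2) numbered 165 and 205, those leaning to lipid-associated markers (Gpnmb, Mmp12, Trem2 and others) 26 and 199, and 58 and 211 lay between. Kupffer-like cells made up 66.3% of the class under the AEG-1DMAC label and 33.3% under the AEG-1fl/fl label, and lipid-associated cells 10.4% and 32.4%. Vcam1 in Kupffer-like cells stood at 449 CPM under the AEG-1DMAC label and at 1299 CPM under the AEG-1fl/fl label, a log2 ratio of -1.53 (-1.66 to -1.41). Lipid-associated cells gave 308 and 646 CPM (-1.07, -1.43 to -0.73), though 45.9% of the counts of the first library lay in 1 of its 26 cells. The make-up of this sub-gate differed, with its marker Gpnmb at 1307 and 4315 CPM and the Kupffer marker Clec4f at 841 and 272 CPM. The cells between gave 763 and 1101 CPM (-0.53, -0.70 to -0.36). Among cells under 10% hepatocyte-gene counts the ratio was -1.10 (-1.25 to -0.96) in Kupffer-like cells, from 739 and 1587 CPM, and -1.07 (-1.43 to -0.73) in lipid-associated ones.

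Endothelial sub-gates differed in hepatocyte RNA. The larger-vessel list was led by Clu, which stood at 1759 and 2057 CPM in endothelial cells and at 2928 and 3804 CPM in hepatocytes, and 32 of 71 and 38 of 72 larger-vessel-like cells were low in hepatocyte genes, against 88 of 96 and 138 of 140 sinusoidal-like ones. Vwf, a marker of larger vessels, stood at 455 and 299 CPM in the former and at 9.53 and 20.9 CPM in the latter. Vcam1 did not move one way in the sub-gates. It stood at 193 and 183 CPM in sinusoidal-like cells (0.08, -0.36 to 0.51), at 240 and 183 CPM in larger-vessel-like cells (0.39, 0.04 to 0.74) and at 119 and 255 CPM in the cells between (-1.10, -1.37 to -0.83). Among cells low in hepatocyte genes all 3 intervals held 0, with ratios of -0.02, -0.02 and -0.24.

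**Figure D3:**
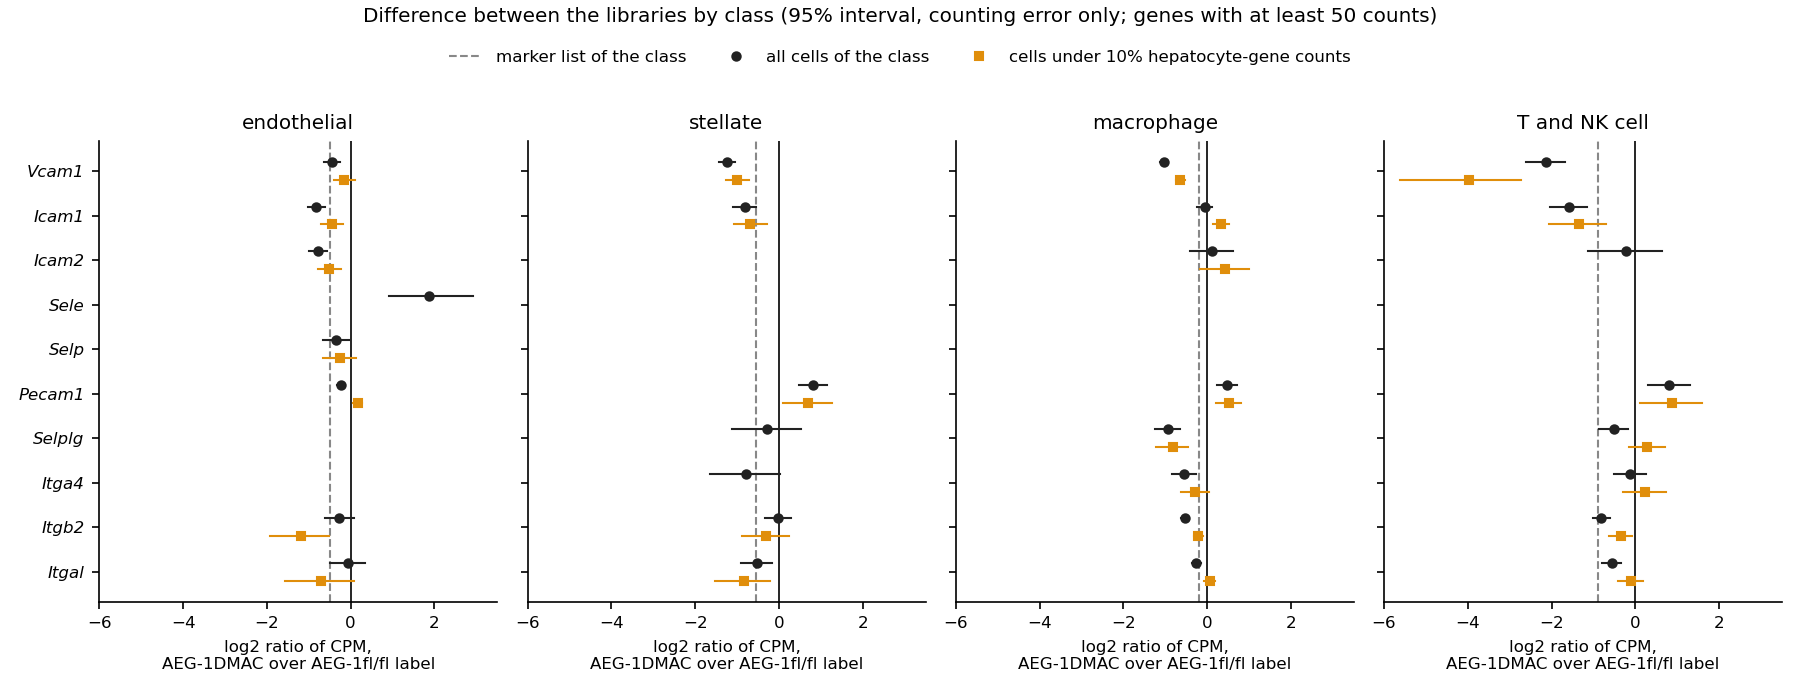
Log2 ratio of CPM between the libraries (x axis, AEG-1DMAC label over AEG-1fl/fl label) for each gene with at least 50 counts in 4 classes; black circles are all cells of the class, orange squares cells under 10% hepatocyte-gene counts, lines 95% intervals for counting error, and the dashed line the ratio of the class's own marker list. Vcam1 lay below the dashed line in stellate cells and macrophages, and Pecam1 above 0 in stellate cells and macrophages.

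Icam1 (chr9:21015985-21028817, plus strand) encodes the main ligand of LFA-1 and was spread over the classes. Endothelial cells held 119 CPM (106 to 133) in the library labelled AEG-1DMAC and 210 CPM (192 to 229) in the library labelled AEG-1fl/fl. Macrophages held 162 CPM (146 to 179) and 169 CPM (158 to 180), and stellate cells 78.5 CPM (67.1 to 91.3) and 138 CPM (125 to 153). T and NK cells held 73.9 and 221 CPM, with 103 of the 241 counts of the latter in 1 cell. No class stood clear at the top: dendritic cells (176 CPM) and macrophages led without separation under the AEG-1DMAC label, and T and NK cells and endothelial cells under the AEG-1fl/fl label. Hepatocytes, at 22.0 and 31.5 CPM, supplied 42.3% and 34.8% of all Icam1 counts, with 56611891 and 60170491 of all counts lying in that class. Their level was 18.5% and 15.0% of the endothelial one, where the endothelial marker list reached 2.25% and 1.01%.

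Icam1 was lower under the AEG-1DMAC label in endothelial and stellate cells and in hepatocytes (-0.52, -0.62 to -0.41), and within counting error of level in the macrophage class as a whole. Its log2 ratio was -0.82 (-1.02 to -0.61) in endothelial cells and -0.82 (-1.09 to -0.55) in stellate cells, against -0.06 (-0.24 to 0.12) in macrophages. Without the cells rich in hepatocyte genes it was -0.44 (-0.70 to -0.19), -0.68 (-1.08 to -0.29) and 0.34 (0.14 to 0.53). The macrophage ratio therefore moved from within counting error of 0 to above it. In the same 2 sets of cells the endothelial marker list had -0.49 and -0.12, and the stellate list -0.54 and -0.28. By sub-gate the macrophage ratio went both ways, with -0.35 (-0.61 to -0.09) in Kupffer-like cells, which became 0.02 (-0.28 to 0.31) among those low in hepatocyte genes, -0.98 (-1.71 to -0.33) in lipid-associated cells, from 20 and 298 counts, and 0.78 (0.46 to 1.10) in the cells between, where 37.2% of the counts of the library labelled AEG-1DMAC lay in 1 cell. In endothelial cells Icam1 stood at 214 and 261 CPM in sinusoidal-like cells (-0.28, -0.68 to 0.10), at 122 and 177 CPM in larger-vessel-like cells (-0.54, -0.97 to -0.11) and at 92.7 and 204 CPM between (-1.14, -1.45 to -0.83). Without the cells rich in hepatocyte genes, sinusoidal-like cells held 231 and 262 CPM (-0.19, -0.59 to 0.21) and larger-vessel-like cells 214 and 422 CPM (-0.98, -1.66 to -0.34). The order of these 2 sub-gates thus turned under the AEG-1fl/fl label, but the larger-vessel-like values came from 28 and 80 counts. Over all its larger-vessel-like cells, 44 of the 125 counts of that library lay in 1 cell. Thinned, 23.3% of 129 sinusoidal-like and 22.1% of 68 larger-vessel-like cells of that library had a count, so the order is not read. Cells between that were low in hepatocyte genes held 191 and 270 CPM (-0.50, -0.92 to -0.09). Whether the ratio differs between classes by more than livers differ could not be tested with 1 library per label.

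Icam2 (chr11:106377656-106388075, minus strand), which endothelium holds without stimulation, was highest in endothelial cells with 111 CPM (98.4 to 124) and 190 CPM (173 to 209). The next class, B cells, reached 52.9 and 41.3 CPM, while stellate cells held 7.48 and 10.1 CPM and hepatocytes 2.56 and 2.01 CPM. Counts were even over cells: the highest endothelial-class cell held 8 and 9. Icam2 in endothelial cells gave a ratio of -0.78 (-1.0 to -0.57), and -0.51 (-0.79 to -0.24) among cells low in hepatocyte genes. The endothelial marker list had -0.49 and -0.12 in the same sets of cells. Sinusoidal-like endothelial cells held more than larger-vessel-like ones in each library, 224 against 71.8 CPM and 296 against 113 CPM. Among cells low in hepatocyte genes the gap was smaller, 231 against 153 CPM and 300 against 248 CPM. The ratio was below 0 in all 3 sub-gates, at -0.40 (-0.78 to -0.03) in sinusoidal-like cells, -0.66 (-1.23 to -0.11) in larger-vessel-like cells and -0.95 (-1.26 to -0.64) in those between. Among cells low in hepatocyte genes only the interval of the cells between lay wholly below 0, at -0.67 (-1.13 to -0.22).

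Pecam1 (chr11:106654217-106750628, minus strand) was highest in endothelium. It stood at 717 CPM (685 to 750) and 839 CPM (803 to 876) in endothelial cells and was found, thinned, in 68.7% of 275 and 72.2% of 360 of them, against 2.68% of 1083 and 2.68% of 1120 hepatocytes. Of the other 8 classes none exceeded 165 CPM. The endothelial ratio of -0.23 (-0.32 to -0.14) turned to 0.17 (0.06 to 0.28) among cells low in hepatocyte genes, and was -0.89 with unsupervised clusters, so no direction is given. In sinusoidal-like cells Pecam1 was level, at 1220 and 1229 CPM, and in larger-vessel-like cells it stood at 851 and 614 CPM (0.47, 0.28 to 0.66). Among cells low in hepatocyte genes the larger-vessel-like levels were 2401 and 1487 CPM, above the sinusoidal-like 1274 and 1243 CPM, so that the order of the sub-gates turned.

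In stellate cells, hepatocytes and the macrophage class as a whole Pecam1 was higher under the AEG-1DMAC label, but in no macrophage sub-gate by more than counting error. Ratios were 0.82 (0.49 to 1.15) in stellate cells, 0.47 (0.23 to 0.71) in macrophages and 0.64 (0.50 to 0.79) in hepatocytes, the last 0.09 with unsupervised clusters, whereas B cells were level at 0.04 (-0.38 to 0.45). In T and NK cells the ratio was 0.80 (0.31 to 1.30), but -0.16 with unsupervised clusters and -0.56 with each cell weighing the same, and 6.90% of 58 cells had a count, thinned, against 15.0% of 107, so no direction is given. In neutrophils it was 1.11 (0.46 to 1.77), with 27 of the 47 counts of the library labelled AEG-1DMAC in 1 cell. Among cells low in hepatocyte genes the ratios were 0.70, 0.51 and 0.88 in stellate cells, macrophages and T and NK cells. The endothelial marker list moved with it: its level in macrophages was 8.95% of the endothelial level under the AEG-1DMAC label and 3.66% under the other, and in stellate cells 7.91% and 3.81%. All 11 of its measured genes had counts in the macrophage class, led by Stab2 at 168 and 143 CPM. The part of free endothelial RNA in the Pecam1 difference was not tested. Kupffer-like cells, the larger share of macrophages under the AEG-1DMAC label, held 120 and 112 CPM of Pecam1, a log2 ratio of 0.10 (-0.21 to 0.41). Lipid-associated cells held 6 and 62 counts (-0.45, -1.95 to 0.75), and the cells between 56.6 and 77.9 CPM (-0.46, -1.16 to 0.18).

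**Figure D4:**
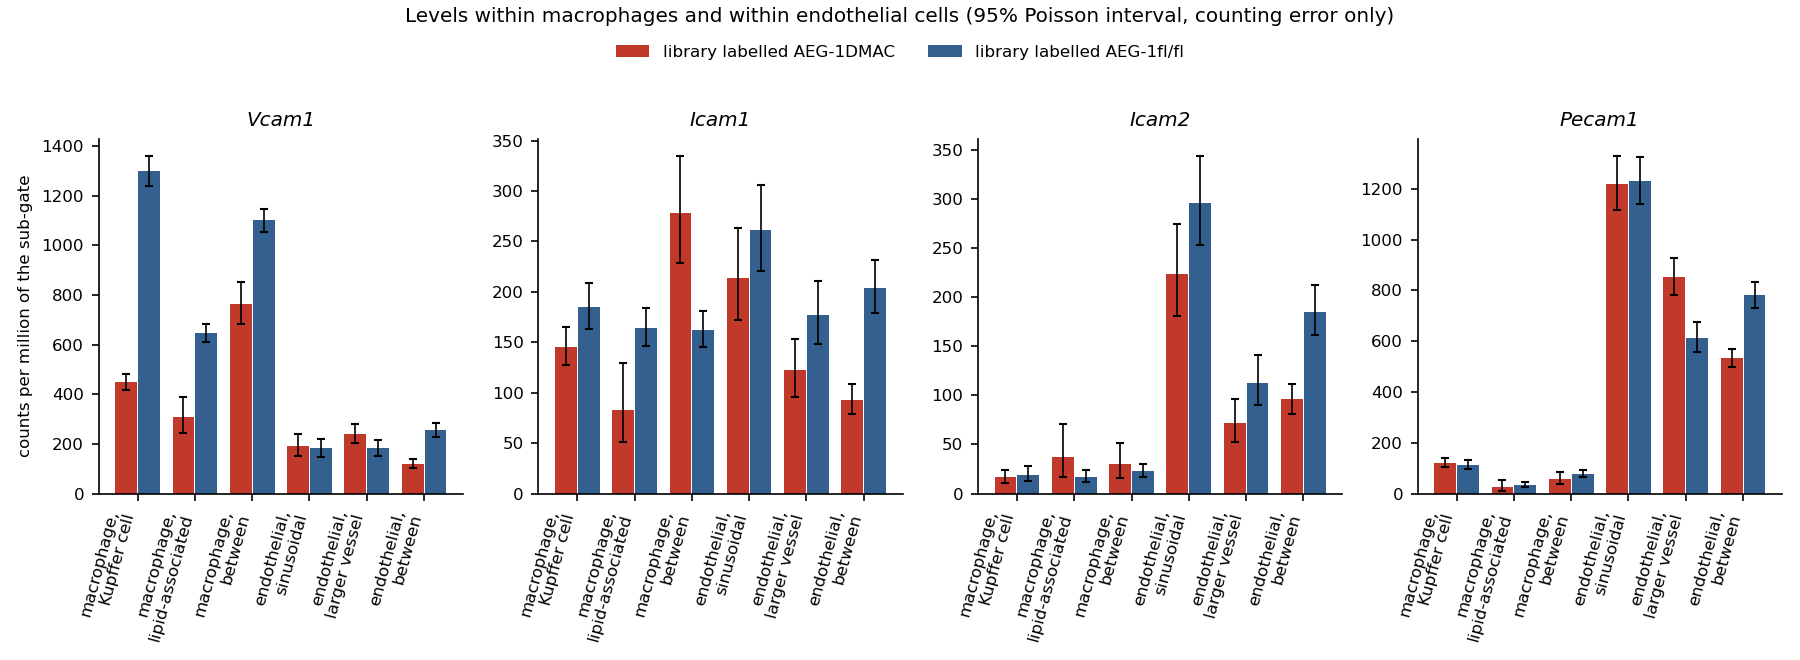
Levels (y axis, CPM of the sub-gate) of Vcam1, Icam1, Icam2 and Pecam1 in 3 macrophage and 3 endothelial sub-gates (x axis) of the library labelled AEG-1DMAC (red) and the library labelled AEG-1fl/fl (blue); bars are levels and lines 95% Poisson intervals. Vcam1 was lower under the AEG-1DMAC label in all 3 macrophage sub-gates, and Pecam1 was level in sinusoidal-like cells at 1220 and 1229 CPM.

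The selectins were sparse. Selp (chr1:164115264-164150026, plus strand), which endothelium and platelets store in granules, stood at 60.7 CPM (51.7 to 70.9) and 77.2 CPM (66.6 to 89.1) in endothelial cells, and endothelial cells supplied 47.6% and 48.6% of its counts. Its endothelial ratio was -0.35 (-0.66 to -0.03), and -0.25 (-0.65 to 0.13) among cells low in hepatocyte genes. It was -1.24 with unsupervised clusters and 0.10 with the hepatocyte profile subtracted, so no direction is given. Macrophages gave 29 and 12 Selp counts, but 23 of the 29 lay in 1 cell. Thinned, 9.45% of 275 and 12.8% of 360 endothelial cells had a count, and 0.0923% of 1083 and 0.536% of 1120 hepatocytes.

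Sele (chr1:164048234-164057677, plus strand), which endothelium makes only on stimulation, had 94 counts in each library, spread over 33 and 38 cells. Endothelial cells held 47 counts in 9 cells under the AEG-1DMAC label and 12 counts in 9 cells under the AEG-1fl/fl label. The ratio of 1.86 (0.92 to 2.91) passed the fold used below, yet 20 of the 47 counts lay in 1 cell and the number of cells with a count was the same. In stellate cells the order was the reverse, 7 and 31 counts, with 19 of the 31 in 1 cell. At this depth no difference in Sele between the libraries can be read.

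The promoters of Icam1, Sele and Selp are shown because they belong to inducible adhesion genes of the vessel wall with unlike patterns here, Icam1 counted in all 9 classes, Selp led by endothelium and Sele sparse. RefSeq (GRCm38.p6) sequences of 4 of the 10 genes were at hand, and the fourth was Itga4. Each line gives the 250 bases before the RefSeq gene start, which for Icam1 lies upstream of the GENCODE start given above, 5′ to 3′ on the plus strand, in lower case, with AP-1 matches (TGANTCA, on either strand) in capitals.
Icam1 chr9:21015690-21015939: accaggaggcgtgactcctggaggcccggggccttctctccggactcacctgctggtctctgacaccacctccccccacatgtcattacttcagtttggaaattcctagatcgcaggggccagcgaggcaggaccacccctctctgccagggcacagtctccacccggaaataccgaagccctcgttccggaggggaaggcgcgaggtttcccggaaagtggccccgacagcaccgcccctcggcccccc
Sele chr1:164047984-164048233: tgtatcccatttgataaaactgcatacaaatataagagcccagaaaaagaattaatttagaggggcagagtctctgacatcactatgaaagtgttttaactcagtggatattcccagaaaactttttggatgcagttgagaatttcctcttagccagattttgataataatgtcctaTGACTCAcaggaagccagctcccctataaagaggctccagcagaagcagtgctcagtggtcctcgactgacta
Selp chr1:164115014-164115263: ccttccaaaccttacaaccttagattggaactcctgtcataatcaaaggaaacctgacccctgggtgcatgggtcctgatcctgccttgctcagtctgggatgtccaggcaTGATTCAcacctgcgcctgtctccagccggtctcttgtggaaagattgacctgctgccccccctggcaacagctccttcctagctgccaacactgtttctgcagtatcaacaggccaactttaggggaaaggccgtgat

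Sele and Selp each held 1 AP-1 match, beginning at -73 and -139 from the gene start, and Icam1 none. The NF-kappaB consensus was searched on both strands as well. Of 32851 promoters of the same length, 6.75% held an AP-1 match and 5.0% a match to the NF-kappaB consensus, which none of the 4 promoters held. A match is a string of letters, not a bound site. A fixed consensus misses sites that differ from it, so the lack of a match does not show that a promoter has no such site.

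Among the leukocyte genes, Selplg (chr5:113818536-113832644, minus strand), the selectin ligand PSGL-1, was highest in dendritic cells with 395 and 343 CPM from 18 and 35 cells. T and NK cells held 146 CPM (120 to 177) and 209 CPM (183 to 238), neutrophils 87.6 and 309 CPM, and macrophages 47.7 CPM (39.2 to 57.5) and 91.5 CPM (83.4 to 100). The dendritic interval (287 to 406) overlapped that of neutrophils (262 to 362) under the AEG-1fl/fl label. T and NK cells low in hepatocyte genes held 541 and 446 CPM, above the dendritic levels, which were not computed in that set. Endothelial and stellate cells held at most 12.5 CPM. In the neutrophil class of the library labelled AEG-1DMAC, 14 cells were counted and 1 of them held 53.2% of the class's counts, so its ratio is not read.

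Selplg in macrophages was lower under the AEG-1DMAC label, with a ratio of -0.94 (-1.25 to -0.64), and -0.82 (-1.21 to -0.45) among cells low in hepatocyte genes. By sub-gate it stood at 40.9 and 70.4 CPM in Kupffer-like cells (-0.78, -1.25 to -0.32) and at 74.9 and 117 CPM in lipid-associated cells (-0.65, -1.43 to 0.05). The cells between held 59.1 and 82.5 CPM (-0.48, -1.16 to 0.14), so only the Kupffer-like interval lay wholly below 0. In T and NK cells the ratio of -0.51 (-0.86 to -0.18) turned to 0.28 (-0.16 to 0.70) among the 29 and 92 cells low in hepatocyte genes, and no direction is given.

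Itga4 (chr2:79255426-79333123, plus strand), the VLA-4 subunit that faces Vcam1, was highest in dendritic cells (249 and 170 CPM) and in T and NK cells (124 and 136 CPM), with 58.1 and 84.9 CPM in macrophages and 61.7 and 39.6 CPM in B cells. Its partner Itgb1 was counted in every compared class, at 303 and 340 CPM in endothelial cells, 332 and 303 CPM in T and NK cells and 265 and 287 CPM in macrophages. In T and NK cells Itga4 was within counting error of level, at -0.12 (-0.52 to 0.26). In B cells the ratio was 0.64 (0.01 to 1.27), but its sign turned with unsupervised clusters, so no direction is given. The macrophage ratio of -0.55 (-0.84 to -0.27) fell to within counting error among cells low in hepatocyte genes, at -0.28 (-0.62 to 0.04). The dendritic interval (132 to 217) overlapped that of T and NK cells (115 to 159) under the AEG-1fl/fl label. T and NK cells low in hepatocyte genes held 375 and 320 CPM of Itga4, and dendritic cells were not compared in that set. Vcam1 and Itga4 thus had different leading classes, macrophages for Vcam1 and dendritic cells or T and NK cells for Itga4.

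Itgb2 (chr10:77530252-77565708, plus strand), the β2 subunit shared by LFA-1 and Mac-1, stood at 557 CPM (527 to 588) and 810 CPM (786 to 835) in macrophages and at 390 CPM (346 to 438) and 682 CPM (634 to 733) in T and NK cells. Itgal (chr7:127296260-127335138, plus strand), the α subunit of LFA-1, stood at 397 CPM (371 to 423) and 476 CPM (457 to 495) in macrophages and at 332 CPM (292 to 377) and 494 CPM (453 to 538) in T and NK cells. Thinned, 62.1% of 58 and 75.7% of 107 T and NK cells had an Itgb2 count, against 3.23% of 1083 and 3.04% of 1120 hepatocytes. T and NK cells low in hepatocyte genes held more of both genes than such macrophages. Itgb2 stood there at 1169 and 1492 CPM (-0.35, -0.63 to -0.08) against 810 and 940 CPM. Itgal stood at 1021 and 1095 CPM (-0.10, -0.41 to 0.19) against 562 and 540 CPM.

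In endothelial cells and hepatocytes their levels were close to that of macrophage RNA. Itgb2 in endothelial cells was 9.46% and 7.85% of its macrophage level and Itgal 9.44% and 8.25%, where the macrophage marker list reached 8.90% and 8.92%. In hepatocytes the values were 3.21% and 2.16% for Itgb2 and 3.22% and 2.17% for Itgal, and 3.15% and 2.05% for the list. Itgal in stellate cells of the library labelled AEG-1fl/fl was above it, at 13.8% against 8.97%.

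Itgb2 in macrophages had a ratio of -0.54 (-0.63 to -0.45), and -0.21 (-0.32 to -0.11) among cells low in hepatocyte genes, beside -0.19 and 0.03 for the macrophage marker list in the same sets of cells. With unsupervised clusters it was -1.07. Lipid-associated cells, fewer under the AEG-1DMAC label, held more Itgb2 than Kupffer-like cells, 1074 against 438 CPM in the library labelled AEG-1DMAC and 1175 against 498 CPM in the other. Within sub-gates the ratios went both ways, -0.18 (-0.34 to -0.03) in Kupffer-like, -0.13 (-0.32 to 0.06) in lipid-associated and 0.09 (-0.09 to 0.27) in the cells between. In those low in hepatocyte genes they were 0.13 (-0.05 to 0.31), -0.16 (-0.35 to 0.03) and 0.28 (0.07 to 0.49). Itgal in macrophages went from -0.26 (-0.37 to -0.15) to 0.06 (-0.07 to 0.19) among cells low in hepatocyte genes, so no direction is given.

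A log2 ratio of at least 1 in size, in genes with at least 50 counts in a class, was counted as past the fold. In macrophages 1 of 8 members was lower (Vcam1) and none higher, where 2.89% of 10099 genes were lower and 2.04% higher. In stellate cells 1 of 7 was lower (Vcam1) and none higher, with 3.73% of 9800 genes lower and 0.929% higher. Endothelial cells had none of 8 lower and 1 higher (Sele), with 2.27% of 9734 genes lower and 1.06% higher. T and NK cells had 2 of 8 lower (Vcam1 and Icam1, each with many of its counts in 1 cell) and none higher, with 5.28% of 6775 genes lower and 2.60% higher. In hepatocytes none of 9 members passed, with 2.17% of 11944 genes lower and 1.31% higher. With unsupervised clusters in place of the gate, more genes passed the fold in each of these classes but T and NK cells. In endothelial cells 8 of 10 members were lower (all but Pecam1 and Sele, the latter at 0.87) and none higher, where 13.1% of 11063 genes were lower and 2.14% higher. In macrophages 3 of 9 were lower (Vcam1, Selplg and Itgb2) and 1 higher (Selp), where 6.07% of 10583 genes were lower and 5.34% higher. In stellate cells 2 of 9 were lower (Vcam1 and Icam1) and none higher, where 6.81% of 10946 genes were lower and 0.868% higher. None of 7 passed in T and NK cells, where 5.08% of 4507 genes were lower and 2.66% higher, and in hepatocytes 1 of 10 was lower (Sele), where 3.88% of 11922 genes were lower and 0.755% higher. With the gate, medians over the members were -0.40 in macrophages, -0.53 in stellate cells, -0.31 in endothelial cells, -0.54 in T and NK cells and 0.03 in hepatocytes, beside -0.08, -0.16, -0.18, -0.14 and -0.01 over all genes. Among cells low in hepatocyte genes none of 8 members in macrophages passed the fold, where 2.05% of 9482 genes were lower and 1.57% higher. None of 5 passed in stellate cells, where 2.92% of 7915 genes were lower and 2.20% higher. In endothelial cells 1 of 7 was lower (Itgb2, from 23 and 86 counts), where 1.79% of 8261 genes were lower and 1.11% higher. In T and NK cells 2 of 7 were lower (Vcam1 and Icam1), where 7.02% of 2907 genes were lower and 2.10% higher.

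Around the 10 genes, 7 lists of the same pathway were followed. In the T and NK cell class 1 cell held 9.47% of the counts under the AEG-1DMAC label and 23.4% under the AEG-1fl/fl label. The class's own marker list had a ratio of -0.90. How the counts of pathway genes were spread over cells was not computed, so differences given below for that class stand as values only. Of 13 other integrin subunits, 10 had 50 counts in macrophages, where 3 were lower past the fold and 1 higher. Itgax, the α subunit of CR4, stood at 89.3 and 277 CPM (-1.63, -1.85 to -1.42) and Itgam, the α subunit of Mac-1, at 39.0 and 136 CPM (-1.80, -2.13 to -1.48). Itga6 had 30 and 218 counts (-1.70, -2.31 to -1.15), and Itgb3 stood at 10.8 and 5.25 CPM (1.05, 0.20 to 1.89) from 25 and 27 counts. In endothelial cells 2 of 8 were lower, Itgax from 16 and 60 counts and Itgb3 from 157 and 292 counts (-1.01, -1.30 to -0.72). Itgax also passed the fold in stellate cells (7.01 and 21.2 CPM), in hepatocytes (2.01 and 5.62 CPM) and, with Itga5, in T and NK cells (32.8 and 154 CPM). In endothelial cells, stellate cells and hepatocytes it was close to or below the level of macrophage RNA. It reached 6.84% and 8.94% of its macrophage level in endothelial cells, 7.85% and 7.63% in stellate cells and 2.26% and 2.03% in hepatocytes, beside 8.90% and 8.92%, 12.4% and 8.97%, and 3.15% and 2.05% for the macrophage list.

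Other genes of selectin binding were followed as a list of 8. Cd34, a sialomucin of vessels, was lower in endothelial cells at 26.4 and 71.5 CPM (-1.44, -1.86 to -1.03) and in macrophages from 3 and 51 counts. In T and NK cells Cd44, a hyaluronan receptor, was lower at 98.5 and 215 CPM (-1.13, -1.53 to -0.74). Of the list, 4 genes could be compared in macrophages and 4 in endothelial cells.

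Among 9 enzymes that build selectin ligands, Fut7, a fucosyltransferase that PSGL-1 needs to bind selectins, was lower in macrophages at 25.1 and 53.2 CPM (-1.08, -1.52 to -0.67), and it passed the fold in hepatocytes from 19 and 55 counts. None of the 6 measured in endothelial cells passed the fold. Of the immunoglobulin-type molecules, Alcam was lower in macrophages (27.3 and 60.2 CPM), Pvr in stellate cells (11.2 and 29.1 CPM) and Sirpa in T and NK cells (120 and 250 CPM). None of the 7 measured passed in endothelial cells.

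Of 14 junction genes, Cdh5, Stab2 and Vwf are also on marker lists of the gates, Cd99 was not matched in the matrices, and Pvrl2, listed under an older symbol, is there as Nectin2 and was counted with the immunoglobulin-type molecules. None of 10 passed the fold in endothelial cells. Jam2 and Cldn5, both endothelial in this liver at 457 and 459 CPM and at 183 and 304 CPM, were higher past the fold in macrophages (21.7 and 10.7 CPM, 10.8 and 5.25 CPM) and in stellate cells (29.4 and 7.98 CPM, 18.2 and 9.02 CPM), Jam2 in hepatocytes as well. Stab2 was higher in T and NK cells, at 76.6 and 33.0 CPM. These are the classes in which the endothelial marker list itself was higher under the AEG-1DMAC label; its summed level in T and NK cells was 629 and 168 CPM.

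Of the genes that switch integrins on inside the leukocyte, none of 8 passed the fold in macrophages, with Tln1 at 381 and 411 CPM (-0.11, -0.22 to 0.01) and Fermt3, the kindlin of blood cells, at 204 and 284 CPM (-0.48, -0.63 to -0.33). In T and NK cells 1 of 9 was lower, Fermt3 at 54.7 and 133 CPM. Of 7 genes that report NF-kappaB activity, which induces Vcam1, Icam1 and Sele in endothelium, none passed in endothelial cells or macrophages, and 6 of 7 had a ratio below 0 in endothelial cells, 6 of 6 in stellate cells, 7 of 7 in T and NK cells and 2 of 7 in macrophages. Over all genes 6558 of 9734, 6499 of 9800, 4191 of 6775 and 5914 of 10099 were below 0 in these classes. The median was -0.23 in endothelial cells and 0.05 in macrophages, beside -0.18 and -0.08 over all genes. In stellate cells it was -0.38 and in T and NK cells -0.64, beside -0.16 and -0.14. Hepatocytes had 0.06 and B cells 0.55, beside -0.01 in each. Nfkb2 stood at 64.6 and 94.2 CPM in endothelial cells (-0.54, -0.84 to -0.25). Nfkbia stood at 315 and 264 CPM in macrophages (0.26, 0.13 to 0.39) and 266 and 255 CPM in endothelial cells (0.06, -0.10 to 0.22). Tnfaip3 was lower in stellate cells at 9.35 and 28.1 CPM. Nfkb2, Relb and Traf1 passed the fold downward in T and NK cells, with the limit of that class given above.

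Across the 18 points made by 9 classes in 2 libraries, the genes most like 4 of the members were sought among 4518 genes that reached 100 CPM in a class. The points share libraries, depth and free RNA, and the values are a description. Vcam1 was most like Pld3 (Pearson r = 0.931), Fblim1 (0.872), Oas1a (0.870), Siglec1 (0.870) and Sec14l1 (0.865). Siglec1 encodes a sialic acid receptor of resident macrophages. Pecam1 was most like Pde2a (0.951), Fcgr2b (0.931), Adgrg3 (0.921), Mylip (0.916) and Arhgap31 (0.916), and Fcgr2b is on the list of sinusoidal markers. Selplg was most like Pstpip1 (0.967), Pik3r5 (0.962), Ccdc88b (0.960), Fgl2 (0.959) and Snx20 (0.942). The genes nearest to Icam1 were Tmod3 (0.922), Tgfb1 (0.897), Atxn2l (0.896), Pan3 (0.895) and Uba7 (0.895).

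**Figure D5:**
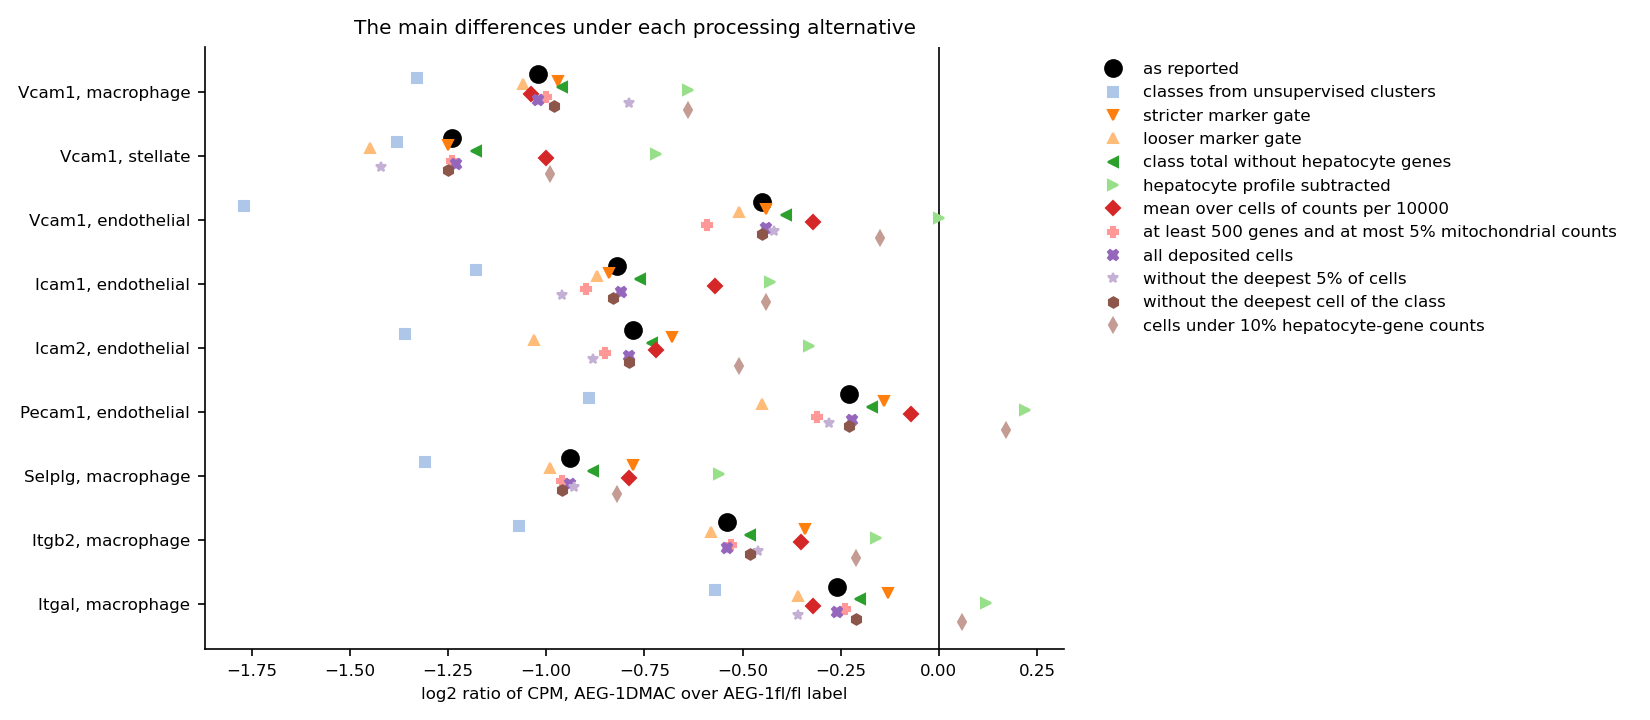
Log2 ratio of CPM between the libraries (x axis, AEG-1DMAC label over AEG-1fl/fl label) for 9 pairs of gene and class (y axis) as reported (large black circles) and under 11 processing alternatives (other symbols). Vcam1 and Selplg in macrophages, Vcam1 in stellate cells, and Icam1 and Icam2 in endothelial cells stayed below 0 under all of them, while Pecam1 in endothelial cells and Itgal in macrophages crossed 0 and Vcam1 in endothelial cells reached it.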

How the data were processed

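Single-cell RNA was measured in 1 library per genotype label. Per the labels and the file headers, the deposited matrices hold counts of each gene in each cell, which the authors made with Cell Ranger 7.1.0 from a mouse fixed-RNA probe kit on mm10 and not normalized; the submitters' notes also name Seurat. The following was computed from these counts. Cells with fewer than 100 genes or over 10% mitochondrial counts were left out (10 and 27 cells). A cell entered a class when its summed marker CPM plus 20 was at least 4-fold that over all cells, with 3 or more markers detected. The level over all cells was the mean of both libraries, plus 20. A lead of 2-fold was asked only over other classes that also passed. Hepatocytes were cells that reached no class at 2-fold and held at least 10% hepatocyte-gene counts. The thresholds were set after marker scores were seen, and no doublet caller was run: cells that mix a class with hepatocytes remain in it. Sub-gates asked for a 2-fold lead of one sub-list over the other. Counts were summed per class. A library at 0 counts was set to 3 counts in the counts of genes past the fold. The computation of ratios and intervals was checked on simulated Poisson counts. These lack the clumping of counts in single cells, so the check does not bear on it. All 10 members are named, pathway genes where past the fold with 50 counts or more, and the 5 most alike genes by log2(CPM + 5); further pathway genes (Itgb1, Tln1, Fermt3 in macrophages, Nfkbia, Nfkb2 in endothelial cells) were named after their values were seen. 1 gene of the lists is not reported here. The members and lists were chosen with earlier results of these data known. Python 3.11.15, SciPy 1.17.1 and, for clusters, Scanpy 1.11.5 were used. Promoters came from RefSeq (GRCm38.p6) and gene positions from GENCODE on GRCm38.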

Additional observations from a re-analysis of the deposited data

How the results depend on the processing

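With 1 library per label no replicate could be left out. No paired analysis was possible because each genotype label has 1 library. Of 47 ratios of a gene in a class, the class total without hepatocyte genes, the stricter cell filter and all deposited cells moved none out of its counting interval. Classes from unsupervised clusters moved 32, of which 30 went down, and subtraction of the hepatocyte profile moved 21 of 38, all up; the causes were not tested. Leaving out cells with 10% or more hepatocyte-gene counts moved 20 of 38 and leaving out the deepest cell of a class moved 5, both alternatives chosen after seeing the data.

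With clusters, log2 ratios in endothelial cells were -1.77 for Vcam1, -1.18 for Icam1, -1.36 for Icam2, 0.87 for Sele, -1.24 for Selp and -0.89 for Pecam1, beside -1.07 for the endothelial marker list. In macrophages they were -1.33 for Vcam1, -1.31 for Selplg, -0.91 for Itga4, -1.07 for Itgb2 and -0.57 for Itgal. Clusters turned the sign in B cells for Icam1 (-0.70), Itga4 (-0.58) and Itgal (-0.18), in hepatocytes for Selp (-0.11) and Itgal (-0.23), and in T and NK cells for Pecam1 (-0.16). With the hepatocyte profile subtracted, endothelial ratios were 0.00 for Vcam1, -0.43 for Icam1, -0.33 for Icam2, 0.10 for Selp and 0.22 for Pecam1, so that Vcam1 lost its direction and Selp and Pecam1 turned. Macrophage ratios were then -0.64 for Vcam1, -0.56 for Selplg, -0.16 for Itga4, -0.16 for Itgb2 and 0.12 for Itgal, which turned, and Vcam1 in stellate cells was -0.72.

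Among cells under 10% hepatocyte-gene counts, ratios were -0.15 for Vcam1, -0.44 for Icam1, -0.51 for Icam2 and 0.17 for Pecam1 in endothelial cells, -0.99 for Vcam1 in stellate cells, -0.64 for Vcam1, -0.21 for Itgb2 and 0.06 for Itgal in macrophages, and 0.28 for Selplg in T and NK cells. With each cell weighing the same they were -0.57 for Icam1, -0.71 for Selp and -0.07 for Pecam1 in endothelial cells, -1.0 for Vcam1 in stellate cells and -0.35 for Itgb2 in macrophages, and the sign turned for Selp in hepatocytes (-0.12) and Pecam1 in T and NK cells (-0.56). The stricter gate gave -0.34 for Itgb2 and -0.13 for Itgal in macrophages and -0.14 for Pecam1 in endothelial cells. The looser gate gave -1.45 for Vcam1 in stellate cells and, in endothelial cells, -1.03 for Icam2 and -0.45 for Pecam1. Without the deepest 5% of cells Vcam1 in macrophages was -0.79 and Icam1 in B cells -0.10, which turned.

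The macrophage share of Vcam1 counts under the AEG-1DMAC and AEG-1fl/fl labels was 38.8% and 51.7% with clusters, and 31.6% and 47.6% with the hepatocyte profile subtracted. With at least 200 counts, genes past the fold numbered 101 in endothelial cells (324 with at least 50), 157 in stellate cells (457), 225 in macrophages (498), 98 in T and NK cells (534) and 212 in hepatocytes (415). With clusters, an alternative for these counts chosen after seeing the data, they numbered 1690, 840, 1207 and 349 in the first 4 of these classes and 552 in hepatocytes.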
